A study of Mus musculus with 10 samples.

Results

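The 38 genes described here are *Trp53*, the gene of the transcription factor p53, and its 2 inhibitors, p53 target genes of growth arrest and the damage response, 2 polo-like stress kinases, the BCL2 family, caspases with the apoptosome gene *Apaf1*, and inhibitor of apoptosis (IAP) genes. They were listed by name and function, with earlier results of these data known, and all 38 were found among the 53801 genes of the count table. Enough reads for a test were present for 37 of them, the exception being *Pmaip1*. The study asked which genes change when Creb3l1, a transcription factor of the endoplasmic reticulum membrane, is depleted in AtT20/D16v-F2 cells, a mouse corticotroph line from a pituitary tumour. RNA was sequenced from 2 stable lines made with lentivirus, of which one carried *Creb3l1*-shRNA1 (5 libraries) and the other a non-targeting control hairpin (5 libraries). Both lines were grown in the same medium, with no drug or damaging agent given in the labels. Each group of libraries came from 1 stable line with 1 hairpin, so that loss of *Creb3l1*, other effects of the hairpin and differences between the lines cannot be told apart, and p-values measure the spread between libraries of these lines.

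p53 is held at a low level by the ubiquitin ligase Mdm2 and the related protein Mdm4, and when DNA damage or another stress releases it, it binds response elements and switches on genes of cell cycle arrest, repair and cell death. Much of this control acts on p53 protein rather than on *Trp53* RNA. In the mitochondrial death pathway, BH3-only proteins sense stress, anti-death proteins such as Bcl2 and Mcl1 restrain them, and the effectors Bax and Bak1 permeabilise the outer membrane, after which cytochrome c, Apaf1 and caspase-9 form the apoptosome and IAP proteins oppose the caspases.

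The hairpin targets are shown because they define the groups, and the capitals in the promoters below mark motif matches. Each target has 21 bases.
*Creb3l1*-shRNA1: gagtcggatttcctcaacaat
Non-targeting shRNA: atcatgttaggcgtacggact
The longest run of the *Creb3l1*-shRNA1 target found in an annotated transcript of any member was 10 bases, in *Bad*, *Bcl2l1*, *Bcl2l11* and *Plk2*, against all 21 bases in *Creb3l1*.

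Promoters from 250 bases before to 50 after the start site were taken from RefSeq (GRCm38.p6) and were found for 33 members, 47 promoters in all. They were searched on both strands for the p53 decamer consensus (a full p53 response element is a pair of such decamers), for GACGTG, the G-box core that the study examined, for its E-box form CACGTG, and for the cAMP response element TGACGTCA. The last 3 words share the run ACGT, but none contains another. The decamer was present in 10 of the 47 promoters (21.3%), those of *Trp53*, *Mdm2*, *Ccng1*, *Gadd45a*, *Sesn1*, *Aen*, *Bmf*, *Bax* and *Birc2*, and in 8.36% of the 32851 mouse promoters in the same set. GACGTG was in 4 (8.51%, against 6.38% of all), in *Plk2*, *Casp6*, *Apaf1* and *Xiap*. CACGTG was in 6 (12.8%, against 7.15%), in *Trp53*, *Gadd45b*, *Gadd45g*, *Aen*, *Bbc3* and *Bax*, and TGACGTCA in 3 (6.38%, against 1.79%), those of *Plk2*, *Btg2* and *Birc2*. A match describes letters in a window and shows no binding. The promoters of 3 members that rose (*Gadd45a*, *Bmf* and *Ccng1*) and of *Plk2*, which fell, are given from 5′ to 3′ on the strand of the gene. The other *Bmf* promoters and that of *Bcl2*, which also rose, held none of these motifs and are not shown. Whether a match goes with a change was not tested. In *Gadd45a*, *Bmf* and *Ccng1* the capitals mark the p53 decamer, which starts at -40, -213 and -185 relative to the start site. In *Plk2* they mark the G-box core, read on the other strand, at -208 and the cAMP response element at -62.
*Gadd45a*, chr6:67037358-67037657, minus strand: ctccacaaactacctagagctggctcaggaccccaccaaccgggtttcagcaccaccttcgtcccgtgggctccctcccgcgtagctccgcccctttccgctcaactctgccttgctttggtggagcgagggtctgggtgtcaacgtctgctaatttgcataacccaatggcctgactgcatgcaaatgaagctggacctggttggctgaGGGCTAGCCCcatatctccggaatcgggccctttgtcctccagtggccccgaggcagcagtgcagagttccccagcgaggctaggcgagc
*Bmf*, chr2:118544538-118544837, minus strand, 1 of 3 promoters listed: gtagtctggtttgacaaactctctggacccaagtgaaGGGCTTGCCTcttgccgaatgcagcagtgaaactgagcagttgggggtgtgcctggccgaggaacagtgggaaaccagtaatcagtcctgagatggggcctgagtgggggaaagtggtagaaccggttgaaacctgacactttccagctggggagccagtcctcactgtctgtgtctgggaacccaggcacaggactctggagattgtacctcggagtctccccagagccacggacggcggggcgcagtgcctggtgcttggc
*Ccng1*, chr11:40755237-40755536, minus strand: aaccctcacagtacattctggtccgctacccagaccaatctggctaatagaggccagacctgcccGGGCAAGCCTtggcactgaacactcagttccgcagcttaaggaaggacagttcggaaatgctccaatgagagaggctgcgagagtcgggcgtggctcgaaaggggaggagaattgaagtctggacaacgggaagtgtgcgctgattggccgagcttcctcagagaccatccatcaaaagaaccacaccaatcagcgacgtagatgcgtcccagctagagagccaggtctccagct
*Plk2*, chr13:110394794-110395093, plus strand: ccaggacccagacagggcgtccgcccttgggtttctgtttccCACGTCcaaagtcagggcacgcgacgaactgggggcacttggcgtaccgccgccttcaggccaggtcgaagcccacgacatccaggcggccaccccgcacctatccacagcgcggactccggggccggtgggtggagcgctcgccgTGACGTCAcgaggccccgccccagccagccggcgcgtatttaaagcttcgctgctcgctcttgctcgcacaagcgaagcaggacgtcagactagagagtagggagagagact

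Library totals ran from 17420698 to 22205107 counted reads. The non-coding gene *Gm42418* accounted for 4.13% of the reads of non-targeting replicate 3 and for 0.106% to 0.191% of those of the other 9 libraries. When this library was left out, *Trp53inp1* lost its call and every other member kept or still lacked one. *Creb3l1* itself fell from a normalised count of 3689 ± 148 (SD, n = 5) to 1090 ± 59.2 (SD, n = 5), with no overlap between the lines. A normalised count is the read count scaled by edgeR's TMM library size. All 7 corticotroph markers had enough reads to be tested. *Pomc* was at 131411 in the non-targeting and 92045 in the knockdown line (log2 fold change -0.51, adjusted p = 1.2e-16, edgeR). The study reported no change of *Pomc* RNA by quantitative PCR. *Tbx19*, *Pcsk1* and *Nr3c1* were also lower, *Neurod1* and *Pitx1* higher. Of the markers of other pituitary cells, 7 of 9 had 30 reads or fewer over all libraries. The others were *Sox2*, with 1617 reads (0.33, adjusted p = 0.0048), and *Nr5a1*, with 702 (-0.32, adjusted p = 0.041). *Pecam1* had 100 reads (-1.08, adjusted p = 0.0063) and *Cd68* 349 (-0.39, adjusted p = 0.087). *Prl*, *Tshb*, *Fshb*, *Pou1f1*, *Ptprc*, *Cdh5*, *Kdr* and *Lum* had no read in any library. The summed normalised count of 5 fibroblast markers, nearly all of it collagen I, was 814 to 1153 in the control and 943 to 1681 in the knockdown line, and its part in the results was not tested. In such bulk RNA fewer cells that express a gene and less of its RNA per cell cannot be told apart.

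The members leaned towards higher RNA in the knockdown line. Of the 37 tested, 19 rose and 3 fell (edgeR's quasi-likelihood test, adjusted over all 14336 tested genes by Benjamini-Hochberg, called below 0.01), and 15 were not called. The background was high, as 40.7% of all tested genes were called, 20.6% higher and 20.1% lower, against 59.5% and 51.4% of the members called and called higher. All tested members averaged 100 normalised counts or more, and among genes of that depth 46.9% of genes were called and 24.5% were called higher. The median log2 fold change of the members was 0.12, against -0.0025 over all tested genes. Most differences were small, in the members as in all genes: 3 of the 37, *Gadd45a*, *Bmf* and *Bik*, changed by at least 1.5-fold, a share near the 7.73% of all genes. The 5 libraries of one line did not overlap the 5 of the other for 15 members (40.5%), a share near that of all genes (36.0%), with the knockdown line above in 14 and below in 1.

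**Figure D1:**
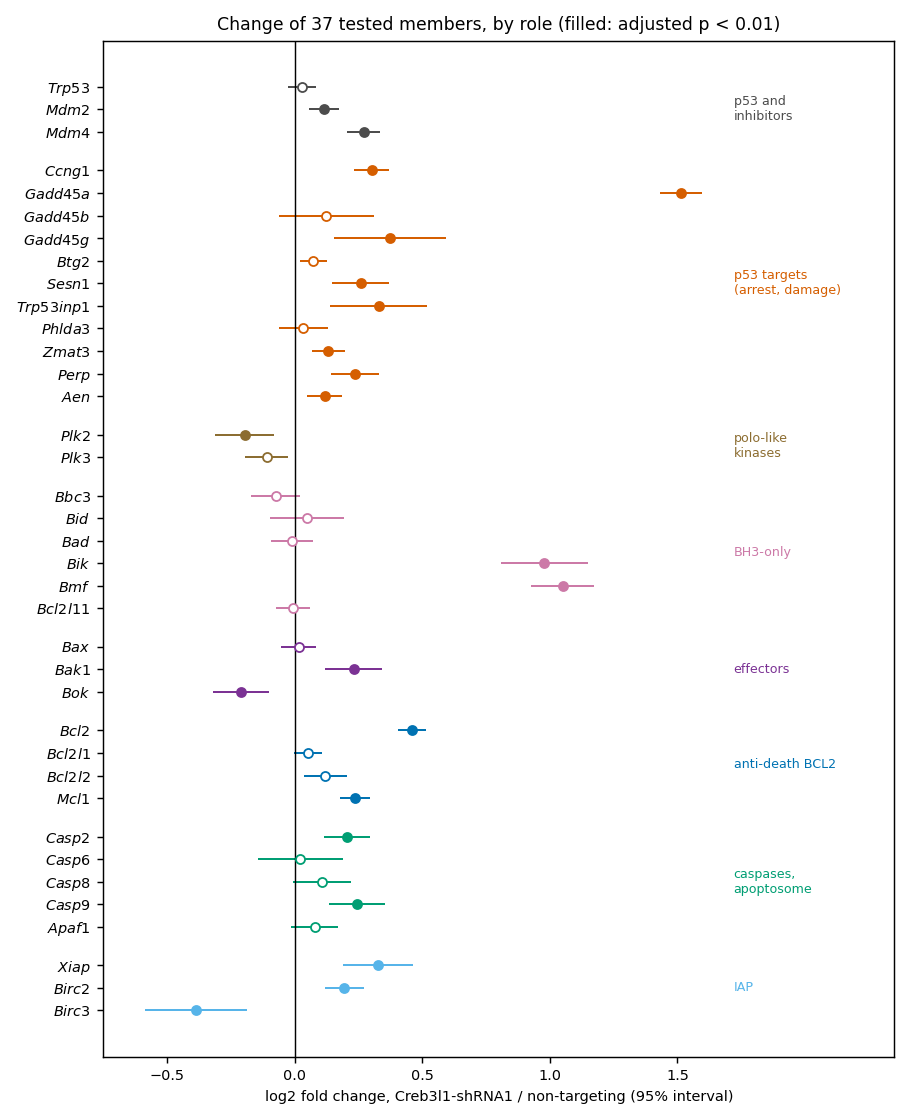
Log2 fold change of the 37 tested members between the *Creb3l1*-shRNA1 and the non-targeting line (x axis, with 95% intervals), grouped by role; filled points had an adjusted p under 0.01. *Gadd45a*, at 1.51, *Bmf* and *Bik* stand far to the right of the other members, and *Plk2*, *Bok* and *Birc3* are the filled points below 0.

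*Trp53* RNA was abundant and differed little between the lines. Its normalised count was 4659, 4630, 4714, 4715 and 4530 in non-targeting replicates 1 to 5 and 4745, 4988, 4774, 4587 and 4628 in knockdown replicates 1 to 5, and these ranges overlap. The log2 difference was 0.03 (95% interval -0.025 to 0.083, adjusted p = 0.39, edgeR). The gene (ENSMUSG00000059552) lies on chromosome 11 of GRCm38 from 69580359 to 69591873. By length-scaled level (RPKM of the TMM-scaled counts), *Trp53* was second among the members in the control line (56.7 ± 0.930, SD, n = 5), after *Btg2*.

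Both inhibitors of p53 rose slightly. *Mdm2*, itself a p53 target that closes a feedback loop (ENSMUSG00000020184, chromosome 10 from 117688875 to 117710758), had counts of 1930, 1936, 1924, 1954 and 1958 in the control line and 2119, 2150, 2125, 2083 and 2034 in the knockdown line. Every knockdown library was above every control library although the log2 fold change was only 0.11 (SE 0.030, adjusted p = 0.0013, edgeR). *Mdm4*, whose product binds the p53 activation domain (ENSMUSG00000054387, chromosome 1 from 132959484 to 133030561), had 3133, 3067, 3207, 2952 and 3171 against 3805, 3458, 3762, 3669 and 4033. Again the lines did not overlap, with a log2 fold change of 0.27 (SE 0.032, adjusted p = 8.8e-09, edgeR). Within each library the length-scaled ratio of *Mdm2* to *Trp53* was 0.332 ± 0.00720 (SD, n = 5) in the control and 0.353 ± 0.00683 (SD, n = 5) in the knockdown line, and that of *Mdm4* to *Trp53* was 0.183 ± 0.00746 and 0.216 ± 0.0174. The ranges of both ratios overlapped by 1 library on each side.

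Among the 11 p53 targets of growth arrest and the damage response, 8 rose, none fell and 3 were not called, with a median log2 fold change of 0.24. Called higher were 72.7% of them, against 20.6% of all tested genes and 24.5% of those with a mean of at least 100 counts. Of 28 further p53 targets, described below, 6 rose and 7 fell. *Gadd45a*, a small stress protein that binds PCNA and Cdk1, had the largest change of all members. Its counts were 564, 566, 608, 591 and 597 in the control line and 1668, 1752, 1586, 1739 and 1608 in the knockdown line. All knockdown libraries lay far above all control libraries. The fold change was 2.86, or 1.51 on the log2 scale (SE 0.040, adjusted p = 9.9e-30, edgeR). The gene (ENSMUSG00000036390) lies on chromosome 6 from 67035096 to 67037457 on the minus strand, and 337 of its 1764 exon bases overlap the antisense gene *E230016M11Rik*, which had 21.0 ± 5.08 and 19.6 ± 5.19 counts (SD, n = 5). *Gadd45a* made up 8.05% of the summed length-scaled level of these 11 genes in the control line and 18.4% in the knockdown line.

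Its paralogs had lower length-scaled levels in the control line, 5.04 for *Gadd45g* and 4.45 for *Gadd45b*, against 16.4 for *Gadd45a*. *Gadd45g* (ENSMUSG00000021453, chromosome 13 from 51846678 to 51848468) had 110, 139, 147, 96.7 and 107.5 counts in the control line and 137, 135, 176, 173 and 150 in the knockdown line. The lines overlapped, and the log2 fold change was 0.37 (SE 0.11, adjusted p = 0.0041, edgeR). That call was lost in DESeq2 (adjusted p = 0.013) and with a prior without robust estimation (adjusted p = 0.011, edgeR). It was also lost without control replicate 1, 4 or 5 or knockdown replicate 3 or 4 (adjusted p up to 0.022, edgeR). *Gadd45b* had a log2 difference of 0.12 (adjusted p = 0.27, edgeR).

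*Ccng1*, the gene of cyclin G1, which recruits a phosphatase to Mdm2, rose by 0.30 on the log2 scale (SE 0.034, adjusted p = 7.5e-10, edgeR). Its counts (ENSMUSG00000020326, chromosome 11 from 40748552 to 40755311) were 1643, 1708, 1666, 1736 and 1673 in the control line against 2112, 1991, 2002, 2015 and 2263, without overlap. *Trp53inp1*, a nuclear stress protein that modulates p53 (ENSMUSG00000028211, chromosome 4 from 11156431 to 11174379), had 1339, 1372, 1386, 1355 and 1496 counts against 1929, 1451, 1620, 1770 and 1943. Knockdown replicate 2 lay inside the control range and the other 4 above it. The log2 fold change was 0.33 (SE 0.083), just past the threshold (adjusted p = 0.0094, edgeR). The call did not hold in 11 of 18 alternative fits, 9 of which left out 1 library, with an adjusted p of up to 0.027 (without control replicate 4). It held without knockdown replicate 2.

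The other targets that rose changed by less. *Sesn1*, a sestrin that restrains mTORC1, had a log2 fold change of 0.26 (adjusted p = 0.00015, edgeR) and *Perp*, a membrane protein of desmosomes and a death effector of p53, one of 0.24 (adjusted p = 4.7e-05). *Zmat3*, an RNA-binding zinc finger protein, rose by 0.13 (adjusted p = 0.00073) and *Aen*, an apoptosis-enhancing nuclease, by 0.12 (adjusted p = 0.0033). The lines did not overlap for *Sesn1*, *Perp* and *Aen* but did for *Zmat3*. *Aen* was not called without knockdown replicate 1 (log2 fold change 0.11, adjusted p = 0.012, edgeR). *Btg2*, an antiproliferative factor and the member with the highest length-scaled level (79.8 ± 2.05, SD, n = 5, in the control line), had a log2 difference of 0.07 (adjusted p = 0.019), and *Phlda3*, a repressor of Akt, one of 0.03 (adjusted p = 0.58).

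The polo-like kinases went the other way. *Plk2*, a stress-inducible kinase and a p53 target, fell by 0.20 on the log2 scale (SE 0.058, adjusted p = 0.0043, edgeR), from 514 ± 22.1 to 449 ± 37.8 (SD, n = 5), with overlap between the lines. The call was lost without knockdown replicate 1, 3 or 5 or control replicate 1 or 2, with a log2 difference of -0.16 at the weakest (adjusted p = 0.025, without knockdown replicate 5). *Plk3* had a log2 difference of -0.11 (adjusted p = 0.025).

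**Figure D2:**
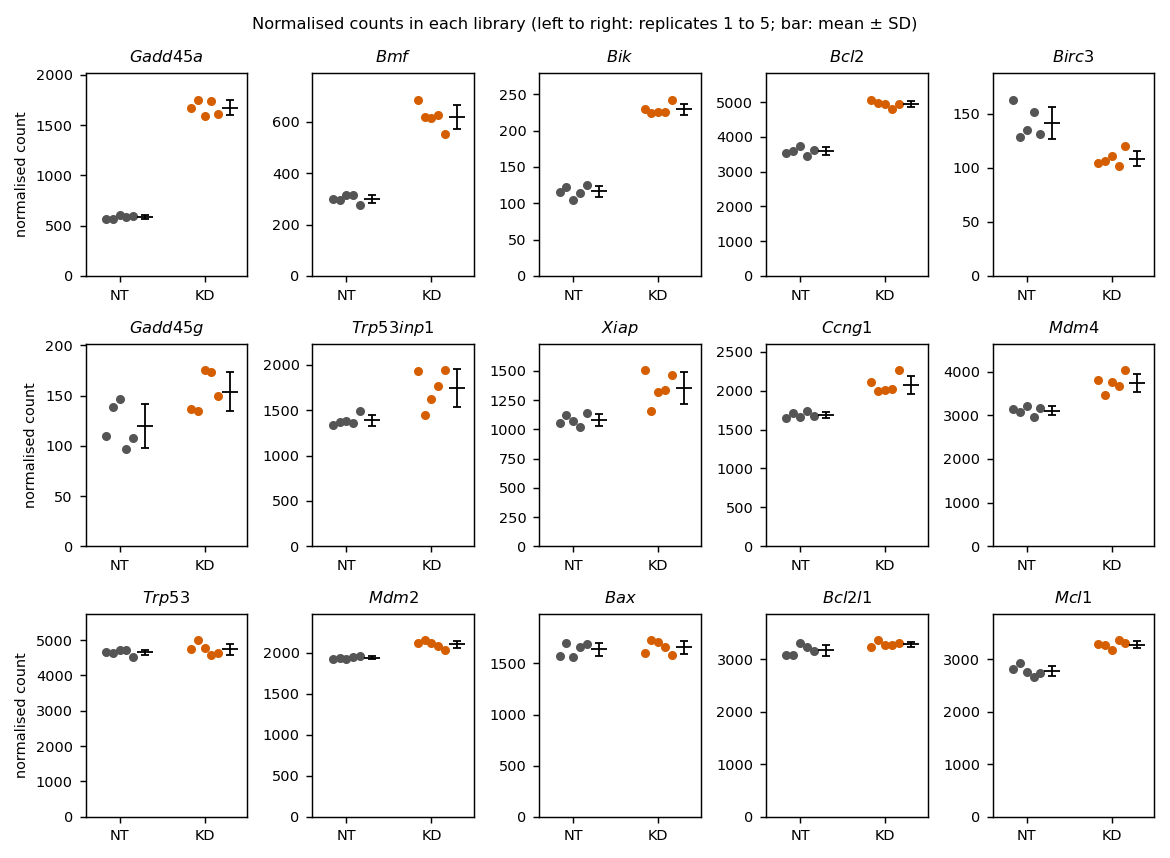
Normalised count (y axis, from 0) in each library of the non-targeting (NT) and *Creb3l1*-shRNA1 (KD) lines for 15 members; points are replicates 1 to 5 from left to right and bars show mean ± SD. The 5 KD points of *Gadd45a*, *Bmf*, *Bik* and *Bcl2* lie clear of the NT points, while those of *Trp53*, *Bax* and *Bcl2l1* overlap them.

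Of the 7 BH3-only genes, 2 rose, and both by close to 2-fold, 4 were not called and 1 could not be tested. *Bmf*, whose product is tied to the cytoskeleton until released (ENSMUSG00000040093, chromosome 2 from 118528757 to 118549687), had 298, 295, 314, 314 and 276 counts in the control line and 685, 618, 613, 626 and 553 in the knockdown line. The lowest knockdown library was well above the highest control library, and the log2 fold change was 1.05 (SE 0.061, adjusted p = 3.0e-18, edgeR). *Bik*, a BH3-only protein of the endoplasmic reticulum membrane (ENSMUSG00000016758, chromosome 15 from 83526862 to 83544634), had 116, 122, 103.9, 115 and 125 against 230, 225, 226, 226 and 243. These too were fully apart, with a log2 fold change of 0.98 (SE 0.084, adjusted p = 5.9e-13, edgeR).

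Of the BH3-only genes most closely tied to p53, *Bbc3* was not called and *Pmaip1* could not be tested. *Bcl2l11*, *Bid* and *Bad* were not called either. *Bbc3*, which encodes Puma and is a direct p53 target, had a log2 difference of -0.07 (adjusted p = 0.20, edgeR). *Pmaip1*, which encodes Noxa, had 1 read in 1 control library and none in the other 9. *Bcl2l11*, which encodes Bim, had a difference of -0.0063 (95% interval -0.071 to 0.059, adjusted p = 0.89). *Bid* and *Bad*, activated through cleavage and dephosphorylation, had differences of 0.05 (adjusted p = 0.61) and -0.01 (adjusted p = 0.85). Of the exon bases, 628 of 3550 in *Bid* and 524 of 2558 in *Bad* overlap a gene on the other strand (*Bcl2l13* and *Gpr137*), and whether the counting used strand is not given in the sources used here. *Bmf* and *Bik* started low: they made up 4.64% and 5.96% of the summed length-scaled BH3-only level in the control line and 8.83% and 10.8% in the knockdown line, where *Bbc3* was still the most abundant (31.9%).

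Among the 3 effectors 1 gene rose, 1 fell and *Bax* was not called. *Bax*, a p53 target (ENSMUSG00000003873, chromosome 7 from 45461697 to 45466898), had 1573, 1700, 1562, 1657 and 1688 counts in the control line and 1602, 1724, 1713, 1665 and 1578 in the knockdown line. The ranges overlap almost fully, and the log2 difference was 0.02 (95% interval -0.053 to 0.085, adjusted p = 0.73, edgeR). *Bak1* rose by 0.23 (SE 0.055, adjusted p = 0.00049). Of its 2407 exon bases, 437 overlap *Ggnbp1* on the other strand. *Ggnbp1* went the opposite way to *Bak1*, with 110 ± 17.7 counts in the control and 71.4 ± 7.10 in the knockdown line (SD, n = 5). *Bok*, an effector that acts without restraint by Bcl2, fell by 0.21 (SE 0.054, adjusted p = 0.0012). The lines overlapped for *Bak1* and *Bok*, and without knockdown replicate 5 *Bok* was not called (log2 difference -0.17, adjusted p = 0.011). The summed length-scaled level of the 3 effectors was 77.5 in both lines.

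The 4 anti-death BCL2 genes all had positive differences, of which 2 were called. *Bcl2* (ENSMUSG00000057329, chromosome 1 from 106538178 to 106714274) had 3545, 3595, 3747, 3458 and 3616 counts in the control line and 5070, 4981, 4952, 4793 and 4933 in the knockdown line. The lines were far apart and the log2 fold change was 0.46 (SE 0.027, adjusted p = 4.9e-18, edgeR). *Mcl1*, the short-lived member that binds Bim and Noxa (ENSMUSG00000038612, chromosome 3 from 95658788 to 95663176), had 2823, 2926, 2764, 2660 and 2747 against 3285, 3272, 3176, 3360 and 3320. It also rose without overlap, by 0.24 (SE 0.029, adjusted p = 4.1e-09).

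*Bcl2l1*, which encodes Bcl-xL (ENSMUSG00000007659, chromosome 2 from 152780668 to 152831728), had 3095, 3076, 3319, 3234 and 3155 counts in the control line and 3243, 3363, 3281, 3270 and 3307 in the knockdown line. The ranges overlap, with a log2 difference of 0.05 (95% interval -0.0035 to 0.11, adjusted p = 0.11, edgeR). *Bcl2l2*, which encodes Bcl-w, had a difference of 0.12 that narrowly missed the threshold (adjusted p = 0.013) and passed it in 5 of 18 alternative fits. By length-scaled level *Mcl1* led this group in both lines (40.2 ± 1.42 and 47.4 ± 0.988, SD, n = 5), and the share of *Bcl2* in the group went from 18.7% to 22.2%. The summed level of the 4 genes ran from 101.9 to 105.3 over the control libraries and from 118 to 121 over the knockdown libraries.

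Ratios within a library do not depend on its total or TMM factor, and are given as a description. The length-scaled ratio of *Bax* to *Bcl2* was 2.58, 2.75, 2.42, 2.78 and 2.71 in the control libraries and 1.84, 2.01, 2.01, 2.02 and 1.86 in the knockdown libraries, without overlap, the knockdown line being lower. The ratio of *Bcl2l11* to *Mcl1* was likewise apart, at 0.282 ± 0.0136 and 0.238 ± 0.0105 (SD, n = 5). The ratio of *Bax* to *Bcl2l1* overlapped, at 1.501 ± 0.0899 and 1.46 ± 0.0514.

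**Figure D3:**
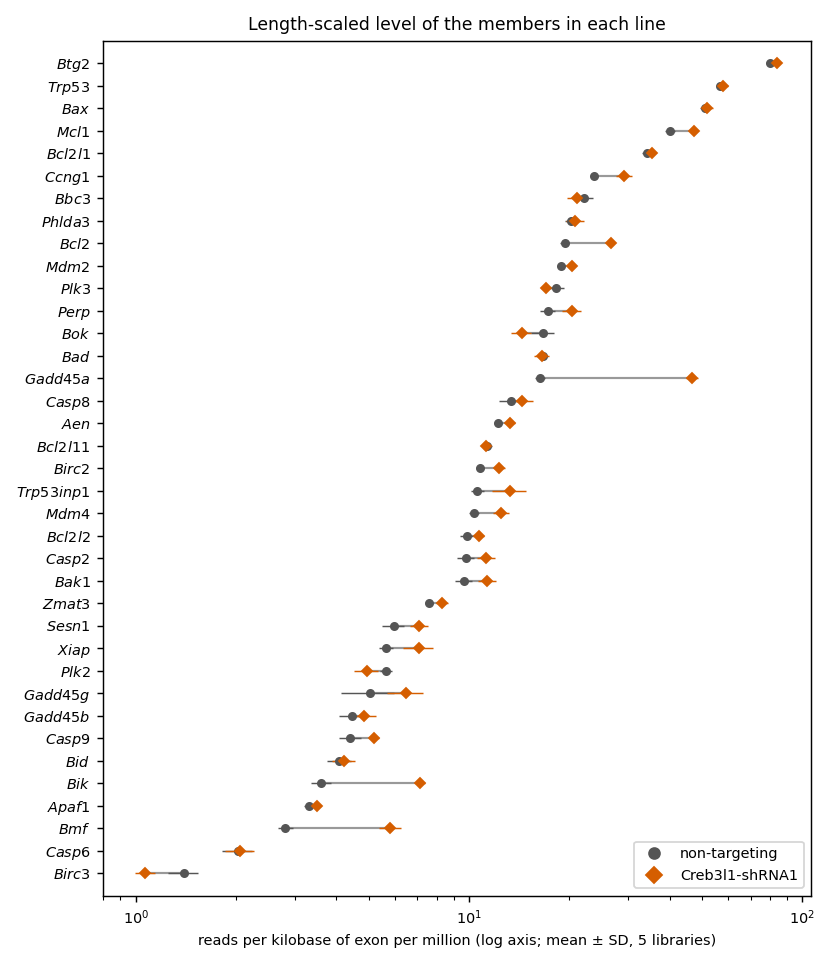
Length-scaled level of the 37 tested members (x axis, RPKM of the TMM-scaled counts, log axis; mean ± SD of 5 libraries) in the non-targeting (circles) and *Creb3l1*-shRNA1 (diamonds) lines, ordered by the non-targeting level, with a grey line joining the means of a gene. The members span from *Birc3*, at 1.39, to *Btg2*, at 79.8, and *Gadd45a* moves from 16.4 to 46.7.

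Of the 5 caspase and apoptosome genes, 2 rose and 3 were not called. *Casp9*, the initiator of the mitochondrial pathway, rose by 0.24 on the log2 scale (SE 0.055, adjusted p = 0.00026, edgeR), with 463 ± 34.8 counts in the control and 547 ± 19.8 in the knockdown line (SD, n = 5) and no overlap. *Casp2*, an initiator activated in the PIDDosome, rose by 0.21 (adjusted p = 0.00023), with overlap. *Apaf1*, the scaffold of the apoptosome, had a difference of 0.08 (adjusted p = 0.15), *Casp8*, the initiator at death receptors, one of 0.11 (adjusted p = 0.11), and *Casp6*, an executioner, one of 0.02 (adjusted p = 0.85).

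All 3 IAP genes were called, in both directions. *Xiap*, a direct inhibitor of caspases (ENSMUSG00000025860, chromosome X from 42059679 to 42109656), had 1059, 1126, 1075, 1018 and 1145 counts in the control line and 1508, 1160, 1319, 1333 and 1467 in the knockdown line. Knockdown replicate 2 was just above the highest control library and the log2 fold change was 0.33 (SE 0.064, adjusted p = 0.00074, edgeR). *Birc2*, which encodes the ubiquitin ligase cIAP1, rose by 0.19 (SE 0.038, adjusted p = 3.2e-05) without overlap. *Birc3*, which encodes cIAP2 (ENSMUSG00000032000, chromosome 9 from 7848699 to 7873186), had 163, 128, 134, 151 and 131 counts against 104.7, 105.96, 111, 101.4 and 120. It was the only member with all knockdown libraries below all control libraries, with a log2 fold change of -0.38 (SE 0.099, adjusted p = 0.0012). The ratio of *Casp9* to *Xiap* overlapped between the lines (0.779 ± 0.0597 and 0.741 ± 0.0893, SD, n = 5).

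The extremes of a line were not spread evenly over its libraries, in either line. Of the 19 members that rose, knockdown replicate 2 was the lowest library of its line for 9 and the highest for 4, and knockdown replicate 5 was the highest for 6. In the control line replicate 4 was the lowest for 7 and replicate 1 for 6, and replicate 5 was the highest for 9 and replicate 3 for 7. In *Trp53inp1* and *Xiap* knockdown replicates 1 and 5 were the highest and replicate 2 the lowest. Some libraries also stood apart by the chi-square per degree of freedom between pairs of libraries, summed over the tested genes. It was 5.47 to 9.23 for pairs with knockdown replicate 2 and 2.28 to 3.36 for other knockdown pairs. Pairs with control replicate 3, rich in *Gm42418*, had 64.3 to 73.1, and other control pairs 1.85 to 2.92. The sum includes *Gm42418*, so the values of control replicate 3 do not show a departure across many genes.

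**Figure D4:**
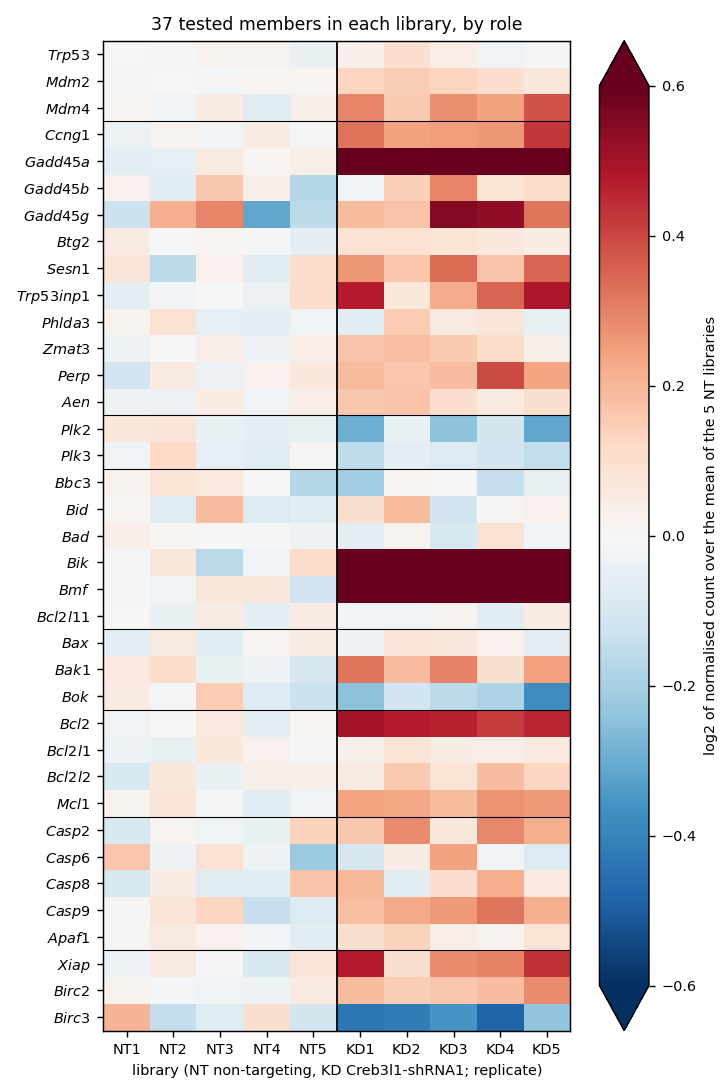
Log2 of the normalised count over the mean of the 5 non-targeting libraries (colour, red higher and blue lower, saturated beyond 0.6) for the 37 tested members (rows, grouped by role) in each of the 10 libraries (columns; NT non-targeting, KD *Creb3l1*-shRNA1). *Gadd45a*, *Bik*, *Bmf* and *Bcl2* are red in every KD library, while *Trp53inp1* and *Xiap* are paler in KD2 than in KD1 and KD5.

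Fitting GC content and transcript length as offsets in each library moved several members. Such offsets also take up any difference between the lines that follows GC content or length. *Zmat3* (0.03, adjusted p = 0.37) and *Bok* (-0.10, adjusted p = 0.093) were then not called, and *Mdm4* and *Xiap*, still called, moved to 0.17 each (edgeR). *Bax* (0.13), *Bcl2l1* (0.12), *Bcl2l2* (0.15), *Phlda3* (0.14), *Btg2* (0.11) and *Trp53* (0.07) were then called higher, which made 24 members higher and 2 lower, while 3240 of all tested genes were higher and 2906 lower. The values were 1.60 for *Gadd45a*, 1.05 for *Bmf*, 1.098 for *Bik*, 0.37 for *Bcl2* and -0.37 for *Birc3*, all still called. The values of *Bax* and *Bcl2* thus lay closer together than without the offsets (0.13 and 0.37, against 0.02 and 0.46), which the ratio of *Bax* to *Bcl2* above does not include.

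Genes of the same pathways outside the 38 were read from 4 further lists. Of 28 tested p53 targets, 6 rose and 7 fell (46.4% called), with a median of -0.03. That share was near those of all tested genes (40.7%) and of genes with a mean of at least 100 counts (46.9%). *Cdkn1a*, the p21 inhibitor of cyclin-dependent kinases and the best known p53 target, had counts of 5111, 5267, 5259, 5238 and 5123 in the control line and 6600, 7010, 6680, 6834 and 6700 in the knockdown line. It rose without overlap by 0.38 (SE 0.025, adjusted p = 3.0e-16, edgeR). *Eda2r*, of the TNF receptor family, rose by 0.82 and *Cop1*, a ubiquitin ligase of p53, by 0.25 (0.09 and not called with GC and length offsets, adjusted p = 0.49, edgeR). *Ephx1*, a detoxifying epoxide hydrolase, fell by 0.76 and *Ddb2*, a subunit of the ultraviolet damage sensor, by 0.48 on the log2 scale.

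Of 23 tested p53 regulators, 11 rose and 1 fell (52.2% called, median 0.11). Of all tested genes 40.7% were called, and 46.9% of those with a mean of at least 100 counts. Called higher were 47.8% of the regulators, against 20.6% and 24.5% of these 2 sets of genes. The largest increases with a mean of at least 100 counts were in the lysine methyltransferase *Setd7* (0.41), the acetyltransferase *Crebbp* (0.36) and the kinase *Hipk2* (0.32), and the checkpoint kinase *Chek2* fell (-0.22, adjusted p = 0.0052, edgeR). The call of *Chek2* was lost in DESeq2 (adjusted p = 0.011), with GC and length offsets (0.012) and with a prior without robust estimation (0.011, edgeR). It was also lost without knockdown replicate 2, 3, 4 or 5 or control replicate 1 or 5 (adjusted p up to 0.031, edgeR). *Trp73*, the p53 paralog, had a mean below 100 and was chosen after its values were seen: it had 26.2, 15.9, 22.01, 30.0 and 22.6 counts in the control line and 86.4, 83.5, 88.3, 67.3 and 80.0 in the knockdown line, a log2 fold change of 1.78 (SE 0.17, adjusted p = 5.2e-12).

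Of 24 tested genes of the wider death machinery, 6 rose and 5 fell (45.8% called, median 0.02). That share was near those of all tested genes (40.7%) and of genes with a mean of at least 100 counts (46.9%). *Cflar*, which encodes the caspase-8 inhibitor c-FLIP, rose by 0.69 (SE 0.068, adjusted p = 2.7e-11, edgeR). *Hrk*, another BH3-only gene, chosen after its values were seen, had counts of 788 ± 39.7 and 1069 ± 17.9 (SD, n = 5), which is 0.44 on the log2 scale (adjusted p = 3.8e-12). The BCL2 relatives *Bcl2l14* and *Bnip3*, the latter induced by hypoxia, fell by 0.94 and 0.66, and *Htra2*, a mitochondrial protease, fell by 0.21 on the log2 scale.

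The stress and immediate early genes leaned the other way from the members, with 2 higher and 10 lower of 19 tested (63.2% called, median -0.18). Over all tested genes 40.7% were called, 20.6% higher and 20.1% lower. The called share was 46.9% for genes averaging 100 counts or more. Like the other lists, this one was chosen with earlier results of these data known. *Atf3* fell by 0.43 (SE 0.057, adjusted p = 2.8e-08, edgeR), *Klf6* by 0.42 and *Jund* by 0.42, while *Egr2* rose by 0.19 and *Ddit3*, which encodes Chop, by 0.15. *Ier3*, chosen after its values were seen, fell from 145 ± 12.1 to 39.5 ± 7.04 (SD, n = 5). *Ddit3* was not called without control replicate 2 (0.12, adjusted p = 0.012, edgeR), nor *Jund* with a replicate block (adjusted p = 0.012). The list also holds *Nr4a1*, which the study selected on these libraries.

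**Figure D5:**
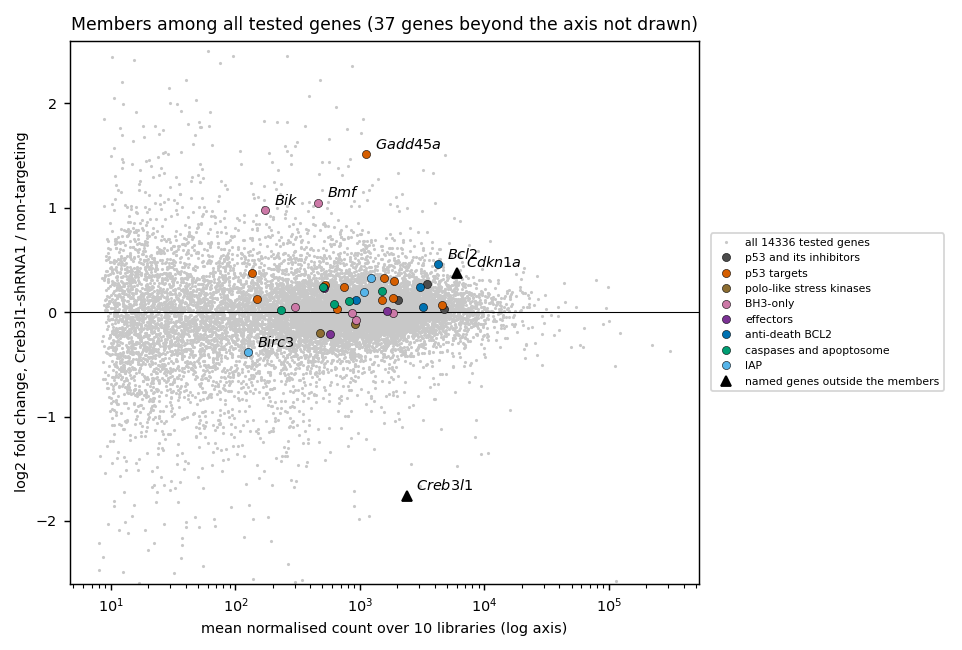
Log2 fold change (y axis) against the mean normalised count over 10 libraries (x axis, log) for all 14336 tested genes (grey; 37 lie beyond the y axis and are not drawn), the members coloured by role, and 2 named genes outside them (triangles). *Gadd45a*, at 1.51, *Bmf* and *Bik* lie at the upper edge of the grey cloud at their counts, and most other members lie within it.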

How the data were processed

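Gene counts were analysed for 5 non-targeting and 5 *Creb3l1*-shRNA1 libraries. The authors selected poly(A) RNA, prepared stranded libraries (TruSeq), sequenced them in pairs, trimmed the reads, aligned them to GRCm38 by STAR and assigned them to genes by featureCounts (Ensembl release 97; the strand setting is not given in the sources used here), and the deposited values are whole read counts without normalisation. All else was computed from these counts with edgeR 4.0.16 and DESeq2 1.42.0 (R 4.3.3) and with Python 3.11.15.

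The 14336 genes that passed filterByExpr were scaled by TMM and tested by a robust quasi-likelihood fit (edgeR) with no covariate, with Benjamini-Hochberg adjustment over all tested genes and a threshold of 0.01. Standard errors and 95% intervals came from the F statistic. Library totals between 17420698 and 22205107 leave the largest counting error in genes with few reads. Levels are RPKM of TMM-scaled counts over merged exons (GENCODE, GRCm38). Symbols were found for 53706 identifiers.

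The members and lists were chosen with earlier results of these data known. Values per library are given for the 10 called members of largest change and for *Trp53*, *Mdm2*, *Bax*, *Bcl2*, *Bcl2l1* and *Mcl1*; outside the members, *Creb3l1*, *Cdkn1a* and up to 3 called genes per list and direction with a mean of at least 100 counts are named. Some genes that this rule takes are not reported here. Alternatives were DESeq2, RLE factors, library totals, no filter, at least 10 counts in every library, a replicate block, GC and length offsets (5 degrees of freedom), leaving out each library, a threshold of 0.05 and at least 1.5-fold. A prior without robust estimation was chosen after seeing the data. The scripts were tested on simulated data. Protein sequences were not used here.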

Additional observations from a re-analysis of the deposited data

Results flagged for a closer look

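In each member and line the gap of the highest or lowest library to its neighbour was compared with the range of the 5 libraries (Dixon's value 0.71), in 74 groups of which chance alone would pass 3.7. Only 1 passed: *Bik* in *Creb3l1*-shRNA1 replicate 5, at a normalised count of 242.6, against 229.7 in the nearest and 224.8 in the lowest library of that line. All 5 libraries were above the control libraries, and *Bik* was called in every alternative fit.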

How the results depend on the processing

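Of the 22 members called, 16 were called in all 18 alternative fits (edgeR or DESeq2) and 6 (*Gadd45g*, *Trp53inp1*, *Zmat3*, *Aen*, *Plk2* and *Bok*) were not called in at least 1. With each library left out, 19 to 23 members were called, 17 to 20 higher and 1 to 3 lower, 1 being reached without *Creb3l1*-shRNA1 replicate 5. Equal replicate numbers did not mark paired libraries (correlations of same-numbered libraries from -0.0647 to 0.0401), and with them as a block 24 members were called, 21 higher and 3 lower.

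A minimum of 1.5-fold left 3 members (3 higher, 0 lower), 1108 of all genes (470 higher, 638 lower), 4 further p53 targets (1 higher, 3 lower), 1 p53 regulator (1 higher, 0 lower), 4 genes of the death machinery (2 higher, 2 lower) and 1 stress gene (0 higher, 1 lower). The number of p53 regulators that fell, 1, became 2 with DESeq2, RLE factors, at least 10 counts or the replicate block, 3 with GC and length offsets and 4 at an adjusted p under 0.05, and ranged from 0 to 2 with a library left out. The stress genes that rose ranged from 1 to 2 with a library left out, 1 without non-targeting replicate 2.

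Members that were not called changed sign in some fits, on the log2 scale: with GC and length offsets *Bad* (0.10, adjusted p = 0.028, edgeR), *Bbc3* (0.0045) and *Apaf1* (-0.0090), with library totals *Bad* (0.0011) and *Bcl2l11* (0.0065), and with a library left out *Bad* (-0.037 to 0.012), *Bcl2l11* (-0.021 to 0.0096), *Bax* (-0.0022 to 0.036) and *Casp6* (-0.034 to 0.070). The cause was not tested. The standard error of the log2 difference was 0.026 for *Btg2*, with many reads, and 0.11 for *Gadd45g*, with few. It did not follow depth alone, being 0.083 for *Trp53inp1*, at a mean of 1566 counts, and 0.045 for *Apaf1*, at 622.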
